A study of Rattus norvegicus with 14 samples.

Results

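The mitochondrial ribosomal protein genes were examined on 14 Affymetrix rat arrays of peripheral blood mononuclear cells (PBMC, the lymphocytes and monocytes of blood). Members were taken by name: every gene whose only symbol in the probe-to-gene table of the array begins with Mrpl or Mrps followed by a number, with 1 probe set per gene, the probe set with the highest mean log2 signal over the 14 arrays. This rule gave 73 genes of 14217 on the array, 46 named Mrpl and 27 named Mrps. All 73 were among the 10088 genes tested, which are those with a signal above the array's median on at least 2 of the 14 arrays. The signal was above that median on all 14 arrays for 71 members, on 13 arrays for Mrpl47 and on 2 arrays for Mrpl38. The members came from 97 probe sets, and 18 members had several.

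The mitochondrial ribosome translates the few messenger RNAs of the mitochondrial genome, which code for core subunits of the respiratory chain and of ATP synthase. Its ribosomal RNAs are made inside the organelle, whereas all its proteins are encoded in the nucleus, made on cytosolic ribosomes and imported. Some of these proteins have counterparts in bacterial ribosomes and others are specific to mitochondria, and the particle has a large subunit (Mrpl genes), which forms peptide bonds, and a small subunit (Mrps genes), which decodes the messenger RNA. Mrps30 and Mrps18a carry small-subunit names but sit in the large subunit, and are counted with it below where members are grouped by role.

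All rats were female Wistar, and arthritis was collagen-induced (CIA), raised by immunisation with bovine type II collagen in adjuvant. Blood was drawn before any therapy from healthy rats (NORA, 3 arrays) and arthritic rats (RA, 2 arrays). At day 34 of therapy it was drawn from healthy rats given acupuncture, a needle inserted and twirled in the skin (HAP, 3 arrays), from arthritic rats given acupuncture (AP, 3 arrays), and from arthritic rats given acupuncture together with the folate antagonist methotrexate (MTXAP, 3 arrays). Rats were killed at sampling, so the groups hold different animals. No group without a needle was sampled at day 34, so that time and therapy cannot be told apart in any comparison of a day 34 group with an earlier group, and the labels do not say why RA has 2 arrays or whether an array holds a single rat.

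The deposited values were MAS5 signals, scaled by the authors so that the trimmed mean was 500 on every array, and all results below are on the log2 scale unless a signal is called linear. Every T cell marker on the array (13 of 13) and all 12 platelet markers on the array were among the genes tested, and 12 of the T cell markers and all 12 platelet markers were above the array's median on all 14 arrays, so the cells carried signals of lymphocytes and of platelets. NORA replicate 3 and MTXAP replicate 3 stood apart from the other arrays: their mean correlations with the other arrays were 0.855 and 0.882, against a median of 0.919 over the 14 arrays. The erythroid marker score, the mean of the centred log2 signals of 8 genes, was 2.57 on NORA replicate 3 and -5.96 on MTXAP replicate 3. The ratio of the 3′ to the 5′ probe sets of actin, a sign of RNA integrity, was 1.97 to 3.01 in NORA, 2.77 and 2.83 in RA, 3.35 to 4.36 in HAP, 2.44 to 2.69 in AP and 3.13 to 5.01 in MTXAP. It did not overlap between HAP and NORA, AP and RA, MTXAP and RA, MTXAP and AP, or AP and HAP. The same ratio for GAPDH was 0.95 to 1.18 over the 14 arrays and overlapped in all of these pairs. The part of these ratios in the members' values was not tested. The members' medians and some counts are given with and without the arrays that stood apart. Ranks of the group means, shares without overlap, correlations between members and most values of single genes are given only with them.

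The promoters of 5 members on which the comparisons below turn are shown first, each as the 250 bases before the gene's start (RefSeq, GRCr8), written from 5′ to 3′ on the strand of the gene. Mrpl57 (chr15:36086207-36086456, plus strand) had the smallest p among members against NORA, Mrpl1 (chr14:13663522-13663771, minus strand) the smallest p over all 5 groups, Mrps31 (chr16:76324066-76324315, minus strand) and Mrps9 (chr9:52605428-52605677, plus strand) low signals in AP, and Mrps18c (chr14:9122907-9123156, minus strand) a pattern opposite to most members. Capitals mark matches, on either strand, to TGCGCA (the core of the NRF1 site), CCGGAAG (ETS family), ATGGCGG (YY1) and GGGCGG (SP1), letters bound by factors that are known to act on nuclear genes of mitochondria; matches were allowed to overlap.
Mrpl57: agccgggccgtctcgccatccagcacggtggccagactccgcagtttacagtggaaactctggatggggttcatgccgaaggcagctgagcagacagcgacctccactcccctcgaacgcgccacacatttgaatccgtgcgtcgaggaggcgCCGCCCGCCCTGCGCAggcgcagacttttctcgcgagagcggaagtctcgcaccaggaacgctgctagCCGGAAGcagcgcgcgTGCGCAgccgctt
Mrpl1: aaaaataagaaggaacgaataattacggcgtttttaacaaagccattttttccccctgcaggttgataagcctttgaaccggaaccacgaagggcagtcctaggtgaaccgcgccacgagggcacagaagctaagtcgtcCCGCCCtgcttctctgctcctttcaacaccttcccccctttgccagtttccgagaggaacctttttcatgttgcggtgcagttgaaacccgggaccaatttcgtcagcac
Mrps31: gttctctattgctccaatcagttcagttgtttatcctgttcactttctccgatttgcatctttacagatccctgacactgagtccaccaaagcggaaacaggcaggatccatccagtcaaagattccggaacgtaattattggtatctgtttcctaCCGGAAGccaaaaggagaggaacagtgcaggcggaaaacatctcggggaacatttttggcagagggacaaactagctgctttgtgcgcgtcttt
Mrps9: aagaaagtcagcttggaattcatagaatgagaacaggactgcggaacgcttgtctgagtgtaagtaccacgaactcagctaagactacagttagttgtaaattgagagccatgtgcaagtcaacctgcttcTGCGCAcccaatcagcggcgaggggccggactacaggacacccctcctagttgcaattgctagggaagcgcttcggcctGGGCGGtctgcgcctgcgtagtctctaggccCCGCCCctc
Mrps18c: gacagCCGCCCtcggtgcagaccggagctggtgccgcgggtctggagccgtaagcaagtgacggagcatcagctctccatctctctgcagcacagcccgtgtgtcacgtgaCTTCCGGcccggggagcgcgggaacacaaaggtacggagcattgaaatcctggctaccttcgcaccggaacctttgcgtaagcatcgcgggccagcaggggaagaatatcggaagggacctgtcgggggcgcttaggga

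In these windows the Mrpl57 promoter held 2 matches to the NRF1 core, 1 to the ETS letters and 2 to the SP1 letters. The Mrpl1 promoter held a single SP1 match, the Mrps31 promoter a single ETS match, the Mrps9 promoter 1 NRF1 and 2 SP1 matches, and the Mrps18c promoter 1 ETS and 1 SP1 match. Promoters were given for 59 of the 73 members. In the window from 250 bases before to 50 bases after the start, 27.1% of these members held the NRF1 core, against 9.18% of 19005 protein-coding promoters of the same length. The ETS letters were found in 33.9% of members against 11.2% of all, the YY1 letters in 22.0% against 6.39%, and the SP1 letters in 50.8% against 43.1%. At least 1 of the 4 motifs was present in 79.7% of members and 51.8% of all promoters. These are matches of letters and not measured binding sites.

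Members differed in how much they varied. The spread within groups, pooled over the 5 groups, ranged from 0.06 for Mrps12, a protein of the decoding centre, to 0.66 for Mrpl38, with a median of 0.25 over members. The range over the 14 arrays had a median of 1.01 and reached 2.27 for Mrpl47 and 2.15 for Mrps18c. The score of the 73 members, the average over genes of the log2 signal minus that gene's own mean, was 0.05, -0.16 and -0.33 on the 3 NORA arrays and 0.12 and 0.12 on the 2 RA arrays. It was 0.12, 0.15 and -0.02 in HAP, -0.09, -0.05 and 0.07 in AP, and -0.00, -0.10 and 0.13 in MTXAP. Thus NORA replicates 2 and 3 were the lowest of the 14 arrays. The RA arrays lay above all NORA and all AP arrays, and every other pair of groups overlapped. As group means, the score was -0.15 ± 0.19 (SD, n = 3) in NORA, 0.12 ± 0.00 (SD, n = 2) in RA, 0.08 ± 0.09 (SD, n = 3) in HAP, -0.02 ± 0.08 (SD, n = 3) in AP and 0.01 ± 0.11 (SD, n = 3) in MTXAP.

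**Figure D1:**
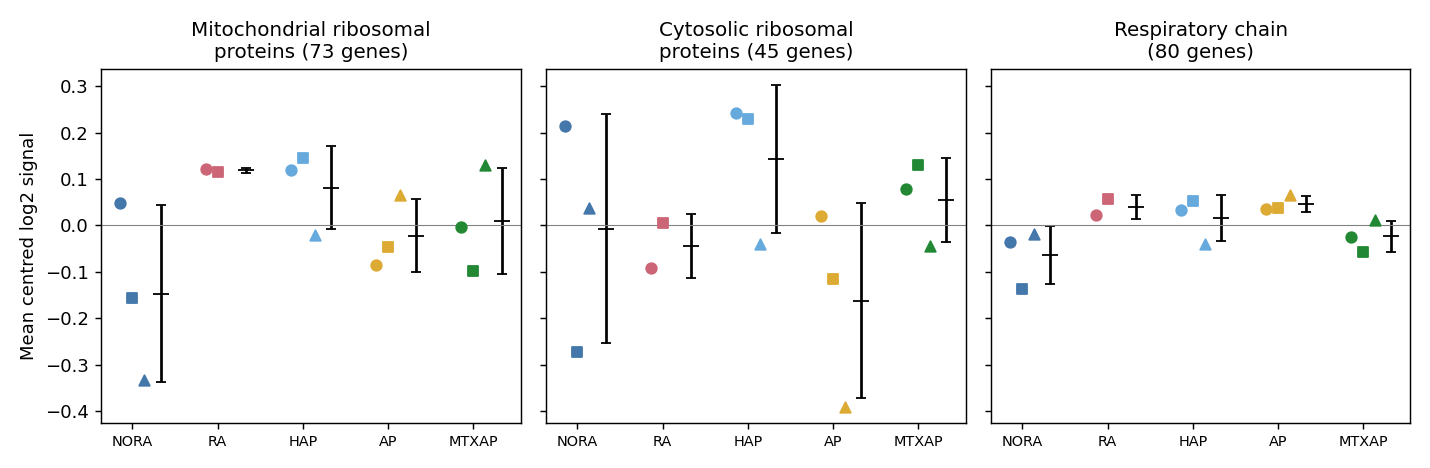
Mean centred log2 signal (y axis) of the 73 mitochondrial ribosomal protein genes, 45 cytosolic ribosomal protein genes and 80 respiratory chain genes on each of the 14 arrays, by group (x axis); the symbol tells the replicate (circle 1, square 2, triangle 3) and black bars give each group's mean with 1 SD. The mitochondrial ribosomal score is lowest on NORA replicate 3, at -0.33, while the cytosolic ribosomal score is lowest on AP replicate 3, at -0.39.

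No member passed the test in any comparison. With limma over the 18515 probe sets that passed the filter, 0 members and 0 probe sets (0%) reached a Benjamini-Hochberg adjusted p of 0.05 in the 6 comparisons of 2 groups, in the difference between the changes of arthritic and healthy rats, or in the F test over the 5 groups. The same model without moderation called 1 member, Mrps12, in MTXAP against AP and none elsewhere. At an unadjusted p under 0.05 the 6 comparisons, in the order in which they follow, held 8.47%, 6.18%, 7.83%, 5.4%, 14.8% and 5.68% of probe sets, and the difference of the changes 13.1%. In the F test 1 member had an unadjusted p under 0.05, against 6.54% of the genes tested. This was Mrpl1, whose bacterial counterpart forms the mobile stalk at the site where spent transfer RNA leaves (limma adjusted p = 0.647). All member values below are therefore given as measured differences, none of which passed, and are read against the same counts over all genes.

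Over the 5 groups, NORA most often held the lowest mean among members and RA the highest. The lowest of the 5 group means was in NORA for 33 of the 73 members (45.2%), whereas it was in NORA for 24.7% of all genes tested. The highest was in RA for 31 members (42.5%), against 21.4% of all genes. NORA held the highest mean for 2 members (2.74%, against 18.8% of all genes), and AP held the highest for 18 and the lowest for 15. The heat map of all members on all arrays shows this as a blue column block on NORA replicate 3 for most of its upper rows.

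**Figure D2:**
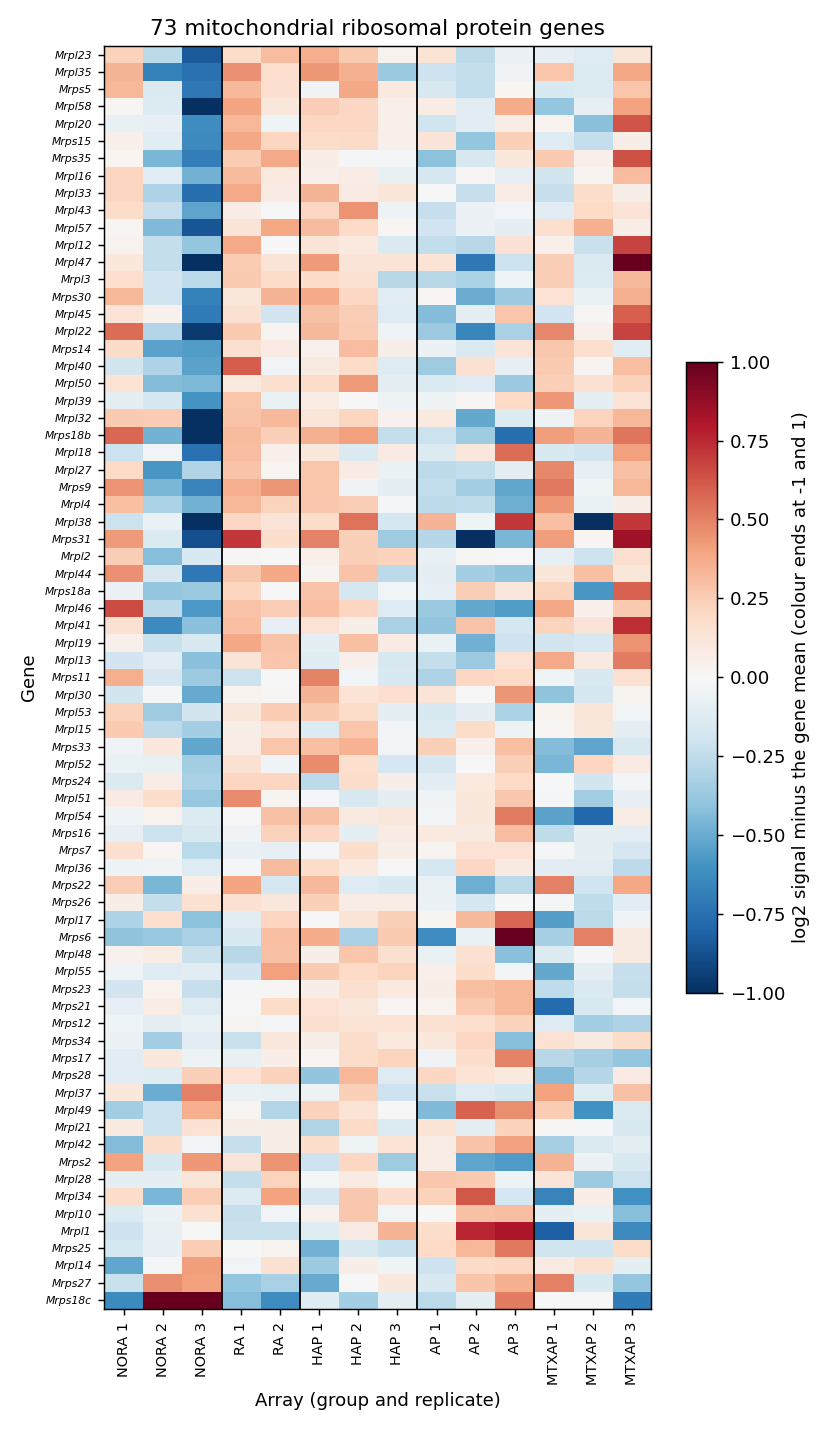
Log2 signal minus the gene's mean over the 14 arrays for each of the 73 members (rows, ordered by their correlation with the score of the other members) on each array (columns, black lines between groups); red is above the mean, blue below, and the colour ends at -1 and 1. Most members in the upper rows are low on NORA replicate 3, and the last row, Mrps18c, is high on NORA replicates 2 and 3.

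In the comparison of RA with NORA, of arthritic with healthy rats before any therapy, 65 of the 73 members were above 0 and 8 below, with a median log2 difference of 0.29. Over all genes tested 57.0% were above 0, with a median of 0.08. Of the 14 members with several probe sets tested, 7 had probe sets that differed in sign. At an unadjusted p under 0.05 there were 3 members higher and 1 lower, against 2.85% and 5.27% of all genes. With the further demand of a 2-fold difference, 0 members were higher and 1 lower (all genes 0.476% and 3.86%). All RA arrays lay above all NORA arrays for 22 members (30.1%), against 12.7% of all genes, and below them for 2 members, Mrpl1 and Mrps27, against 8.65%. The median was 0.33 for the 27 large-subunit members with a bacterial counterpart, 0.32 for the 21 large-subunit members specific to mitochondria, 0.19 for the 15 small-subunit members with a bacterial counterpart and 0.15 for the 10 specific to mitochondria. The same arrays differed in platelet markers, of which 11 of 12 were below 0 with a median of -1.45, and in T cell markers, of which 11 of 13 were above 0 with a median of 0.39; their part in the members' values was not tested. With each array centred on its own median the members' median was 0.51 and that of all genes 0.30, and with quantile normalization they were 0.22 and 0.08.

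Mrpl57, a small mitochondria-specific protein of the large subunit, had log2 signals of 10.80, 10.34 and 9.93 on the NORA arrays and 10.91 and 11.16 on the RA arrays. The RA arrays lay above all NORA arrays, of which replicate 1 came close. The difference was 0.68 ± 0.25 (SE), 1.61-fold, with a limma adjusted p of 0.583. Mrps35, a mitochondria-specific protein of the small subunit, had 8.66, 8.19 and 7.95 in NORA and 8.90 and 9.03 in RA, without overlap. Its difference was 0.69 ± 0.26, or 1.62-fold, with the same limma adjusted p. Mrpl40, in the large subunit, had 8.32, 8.20 and 7.97 in NORA and 9.11 and 8.48 in RA, a difference of 0.63 ± 0.24. In all 3 genes NORA replicate 1 was the highest and replicate 3 the lowest of the healthy arrays. When an array was left out, the difference ranged from 0.47 to 0.91 for Mrpl57. It ranged from 0.54 to 0.89 for Mrps35 and from 0.31 to 0.94 for Mrpl40.

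Mrps18c, a small-subunit protein related to bacterial S18, ran the other way. Its log2 signals were 9.30, 11.27 and 11.40 on the NORA arrays and 9.52 and 9.32 on the RA arrays, so NORA replicates 2 and 3 were about 2 log2 units above NORA replicate 1, which overlapped with RA. The difference was -1.24 ± 0.52 (limma adjusted p = 0.583), and it was -1.92 ± 0.31 without NORA replicate 1, with an adjusted p of 0.0406. The array has 3 probe sets for Mrps18c, which disagreed. The probe set used and a second probe set (-0.88 ± 0.37) were lower in RA, whereas the dimmest, with a mean log2 signal of 6.71, was 0.44 ± 0.26 higher. Mrps27, a mitochondria-specific small-subunit protein, had 8.60, 9.28 and 9.23 in NORA and 8.44 and 8.50 in RA, a difference of -0.57 ± 0.32 without overlap. Mrpl10, at the base of the stalk that holds Mrpl12, differed by -0.12 ± 0.21, and by 0.10 with each array centred on its own median.

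**Figure D3:**
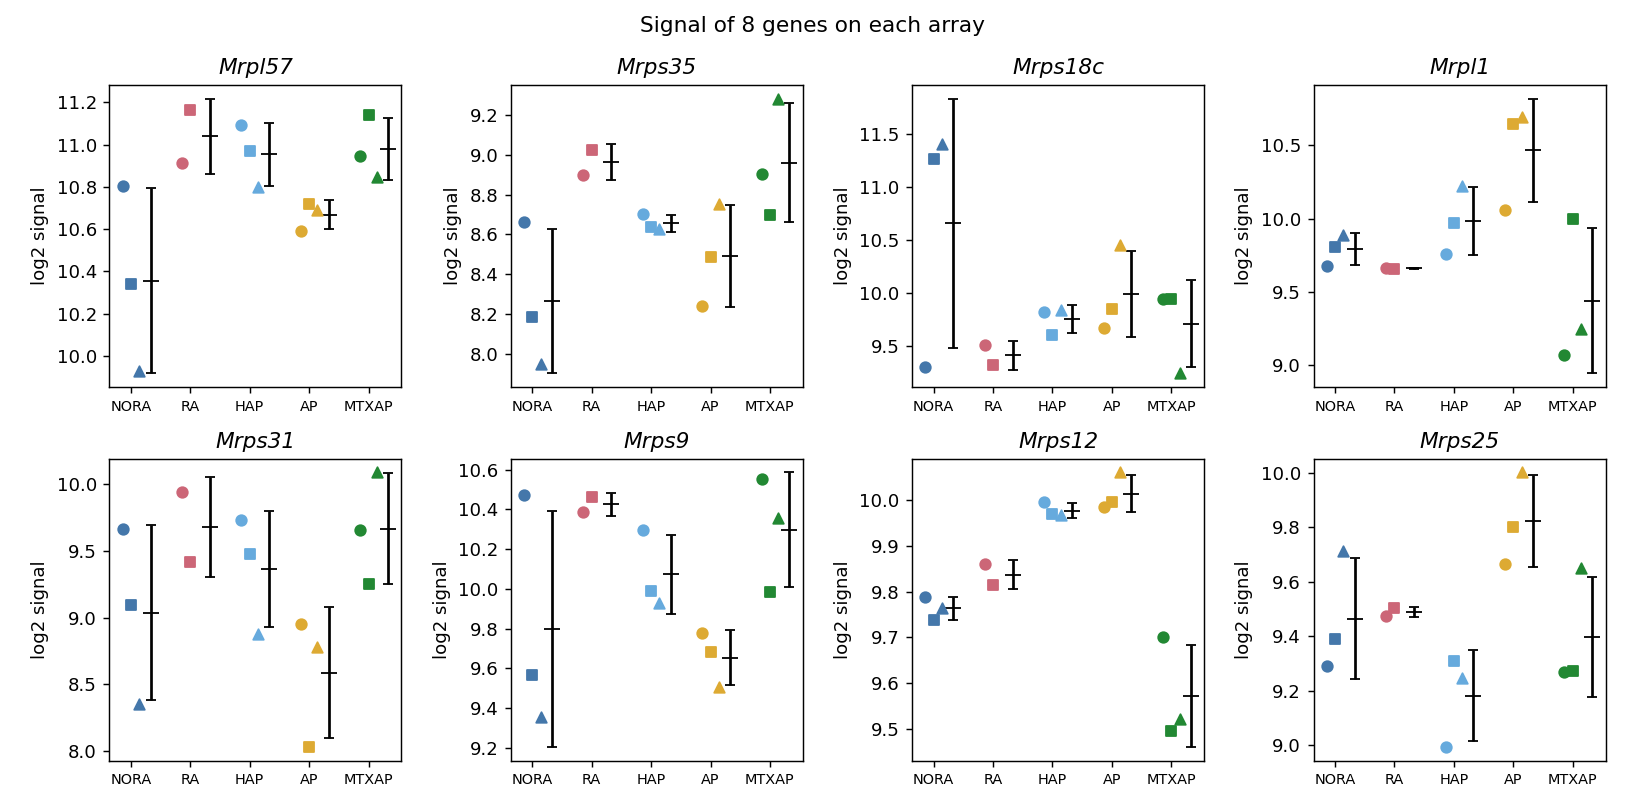
Log2 signal (y axis, its own range in each panel) of 8 members on each array, by group (x axis); symbols are replicates 1 (circle), 2 (square) and 3 (triangle), and black bars give the mean with 1 SD. Mrpl57 and Mrps35 are low on NORA replicates 2 and 3, where Mrps18c is high, and Mrps12 separates MTXAP, at 9.49 to 9.70, from all other groups.

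Leaving out arrays of NORA moved these counts. Without NORA replicate 3, 64 of 73 members stayed above 0, with a median of 0.19 (all genes 0.06), but none had an unadjusted p under 0.05 (all genes 1.58% higher and 1.64% lower). Without NORA replicate 1 the median was 0.39 (all genes 0.09). At that threshold 22 members were then higher and 2 lower (30.1% and 2.74%, all genes 13.7% and 9.63%). The adjusted test called 168 probe sets (0.907%), of which 1 was a member, Mrps18c. Without NORA replicate 2, 58 members were above 0. Leaving out the NORA and RA arrays 1 at a time gave 58 to 64 members above 0. Arrays of the other groups do not enter these differences.

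In HAP against NORA, of healthy rats after and before acupuncture, 64 members were above 0 and 9 below, with a median of 0.23. All genes had 61.8% above 0 and a median of 0.10. The members with an unadjusted p under 0.05 were 2 higher and 0 lower, against 3.49% and 2.25% of all genes, and 0 of them differed 2-fold (all genes 0.783% and 1.11%). The arrays did not overlap for 14 members, all higher in HAP (19.2%, against 7.24% of all genes); none was lower in this way, against 2.54%. This comparison shares the 3 NORA arrays with the comparison above, so the values of the same members in both are not independent. The actin ratio was above that of all NORA arrays on all HAP arrays (3.35 to 4.36 against 1.97 to 3.01). The marker scores overlapped between these groups, with means in HAP and NORA of -0.25 and 0.47 for platelets. They were 0.27 and -0.23 for monocytes and 0.25 and -0.36 for neutrophils. The part of these cells in the members' values was not tested.

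Mrpl57 had 11.09, 10.97 and 10.80 on the HAP arrays, of which replicate 3 overlapped with NORA replicate 1. Its difference to NORA was 0.60 ± 0.22, 1.51-fold (limma adjusted p = 0.747). Mrpl30, a large-subunit protein with a bacterial counterpart, had 9.60, 9.40 and 9.42 in HAP and 9.08, 9.24 and 8.76 in NORA, without overlap, and differed by 0.45 ± 0.20. Mrpl23, which lies near the exit of the peptide tunnel, had 11.21, 11.11 and 10.88 against 11.07, 10.58 and 10.01, a difference of 0.51 ± 0.25 with overlap. On the other side, Mrps18c differed by -0.90 ± 0.47, Mrps25 by -0.28 ± 0.19 and Mrps2 by -0.34 ± 0.26, each with overlapping arrays. Again NORA replicate 3 was the lowest of all arrays for Mrpl57, Mrpl30 and Mrpl23. Without that array, 61 members were above 0 with a median of 0.17 (all genes 0.07), and 0 members had an unadjusted p under 0.05 (all genes 2.60% higher and 0.892% lower). Without NORA replicate 1 the median was 0.37 (all genes 0.13), with 19 members higher and 1 lower at that threshold, when 11.5% and 7.47% of all genes were.

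**Figure D4:**
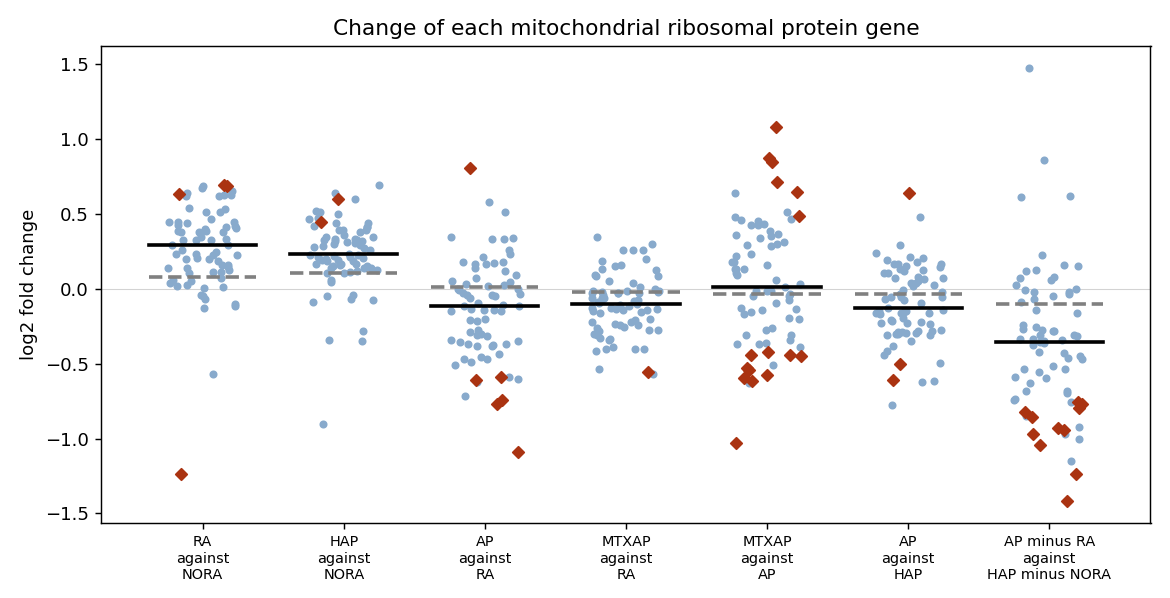
Log2 difference (y axis) of each of the 73 members (points) in the 6 comparisons of 2 groups and in the difference of the 2 changes over time (x axis); red diamonds have an unadjusted p under 0.05, none passed adjustment, the solid line is the members' median and the dashed line the median of all 10088 genes tested. The members' median is 0.29 against 0.08 in RA against NORA and -0.35 against -0.10 in the difference of the changes.

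In AP against RA, of arthritic rats after and before acupuncture, 24 members were above 0 and 49 below, with a median of -0.12, against 0.01 for all genes. There were 1 member higher and 5 lower at an unadjusted p under 0.05 (all genes 3.95% and 3.04%), and 0 higher and 1 lower with a 2-fold difference as well (all genes 2.48% and 0.644%). All AP arrays lay below both RA arrays for 26 members (35.6%), against 19.6% of all genes, and above them for 9 members (12.3%), against 17.5%. By role the medians were -0.22 and -0.14 for the large-subunit members with and without a bacterial counterpart and 0.05 and -0.09 for those of the small subunit, and no test compared the roles. Leaving out an array gave 0 to 8 members lower at that p. The lowest count was without RA replicate 1 (all genes 0.664%). The highest was without NORA replicate 1 or 3 (all genes 5.89% and 5.45%), and these 2 arrays enter through the shared spread. The platelet markers were on the opposite side, 11 of 12 above 0 with a median of 1.11, and so were those of monocytes, 7 of 8 above 0 with scores of -0.15 and -0.14 in RA and 0.17 to 1.05 in AP. Of the T cell markers 9 of 13 were below 0, with scores of 0.19 and 0.24 in RA and -0.14 to 0.13 in AP. The part of these cells in the members' values was not tested.

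Mrpl1 was the exception with the smallest p. Its log2 signals were 9.66 and 9.66 on the RA arrays and 10.06, 10.64 and 10.69 on the AP arrays, a difference of 0.80 ± 0.29, 1.75-fold (limma adjusted p = 0.616). Mrps27 had 8.67, 9.10 and 9.17 in AP, above both RA arrays, with a difference of 0.51 ± 0.32, and Mrpl10 differed by 0.33 ± 0.21, or by -0.027 when all its probe sets were averaged. Mrps31, a mitochondria-specific protein of the small subunit, had 9.94 and 9.41 in RA and 8.95, 8.03 and 8.78 in AP. Its arrays did not overlap, and the difference was -1.09 ± 0.43, 2.13-fold lower in AP. Mrps9, whose bacterial counterpart touches transfer RNA with its tail, had 10.38 and 10.46 in RA and 9.78, 9.68 and 9.51 in AP, a difference of -0.77 ± 0.31. Mrpl19, in the large subunit, had 9.14 and 9.04 against 8.68, 8.27 and 8.54, a difference of -0.59 ± 0.24. For these 3 genes all AP arrays were below both RA arrays. The further large-subunit members with an unadjusted p under 0.05, Mrpl4 at the wall of the peptide tunnel (-0.61 ± 0.25) and Mrpl46 (-0.74 ± 0.31), did not overlap either.

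In MTXAP against RA, of arthritic rats after methotrexate with acupuncture and before therapy, 17 members were above 0 and 56 below, with a median of -0.10 (all genes -0.02). No member was higher and 1 was lower at an unadjusted p under 0.05, against 2.32% and 2.77% of all genes, and 0 differed 2-fold (all genes 1.66% and 0.397%). The MTXAP arrays lay below both RA arrays for 14 members (19.2%), against 13.2% of all genes, and above them for 1, Mrps18b, against 8.9%. Mrps33, a mitochondria-specific small-subunit protein, had 10.70 and 10.90 in RA and 10.18, 10.09 and 10.46 in MTXAP, a difference of -0.55 ± 0.23 (limma adjusted p = 0.922). Mrpl54 differed by -0.57 ± 0.26 and Mrpl55 by -0.39 ± 0.21, with overlap. The 3 members above 0 with the smallest p, Mrps27, Mrpl37 and Mrps34, differed by 0.34 ± 0.32, 0.26 ± 0.28 and 0.20 ± 0.22. AP and MTXAP were each set against the same 2 RA arrays, so their values against RA share these. The platelet score was -0.43 to 0.43 in MTXAP and -1.03 to -0.56 in RA. The score of natural killer cell markers was -0.67 to -0.42 and 0.19 to 0.25, and that of T cell markers -0.33 to 0.12 and 0.19 to 0.24. The other marker scores overlapped, and the part of these cells in the members' values was not tested. Without MTXAP replicate 3 the median was -0.16, with 4 members lower at an unadjusted p under 0.05 (all genes 4.26%), and without MTXAP replicate 2 it was -0.05, with 1 (all genes 2.91%).

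In MTXAP against AP, which sets methotrexate with acupuncture beside acupuncture alone at the same time in arthritic rats, members spread to both sides. There were 37 above 0 and 36 below, with a median of 0.01 (all genes -0.04), which was -0.00 with quantile normalization or with centring on the array's median. Of the comparisons of 2 groups this held the most members with an unadjusted p under 0.05, 6 higher in MTXAP and 10 lower, against 6.25% and 8.73% of all genes. A 2-fold difference as well was found for 1 higher, Mrps31, and 1 lower, Mrpl1 (all genes 1.61% and 2.38%). The arrays did not overlap for 12 members higher (16.4%, against 11.8% of all genes) and 14 lower (19.2%, against 11.8%). Leaving out an array gave 0 to 11 higher and 4 to 12 lower. The count higher was 0 without AP replicate 2 or MTXAP replicate 3 (all genes 3.93% and 3.84%). It was 11 without NORA replicate 1 or MTXAP replicate 2 (all genes 9.04% and 6.95%). The count lower was 4 without AP replicate 3 and 12 without AP replicate 1 (all genes 5.78% and 8.82%). The markers of natural killer cells were lower in MTXAP for 6 of 6 genes, with a median of -1.06 and scores of -0.67 to -0.42 against -0.02 to 1.03 in AP, and those of monocytes for 7 of 8 tested, with a median of -0.82; their part in the members' values was not tested.

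Mrpl1 had linear signals of 1067, 1600 and 1655 in AP and 537, 1024 and 607 in MTXAP, so the groups did not overlap. The difference was -1.03 ± 0.26, 2.04-fold lower with methotrexate, the smallest p of any member in any comparison (limma adjusted p = 0.188). Mrps17, a small-subunit protein with a bacterial counterpart, had 10.55, 10.77 and 11.08 in AP and 10.31, 10.25 and 10.20 in MTXAP, a difference of -0.54 ± 0.18 (adjusted p = 0.224 with limma). Mrps12 had linear signals of 1014, 1021 and 1068 in AP and 832, 722 and 734 in MTXAP, a log2 difference of -0.44 ± 0.14. Its groups varied little, with log2 SDs of 0.04 and 0.11. The limma adjusted p for Mrps12 was 0.230, and without moderation it was 0.0264, when 5 probe sets were called in all.

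Among members higher in MTXAP, Mrps31 had 9.66, 9.25 and 10.09 against 8.95, 8.03 and 8.78 in AP, a difference of 1.08 ± 0.38, 2.11-fold (limma adjusted p = 0.249). Mrpl22, which lines the peptide tunnel, had 10.72, 10.29 and 10.92 against 9.88, 9.59 and 9.91, a difference of 0.85 ± 0.33. Mrpl46, specific to mitochondria, had 10.14, 9.80 and 10.01 against 9.38, 9.24 and 9.19, a difference of 0.71 ± 0.28. All 3 were without overlap. Mrps9 was 0.64 ± 0.28 higher in MTXAP, also without overlap. Without MTXAP replicate 3, or without NORA replicate 3 and MTXAP replicate 3 together, 0 members passed.

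In AP against HAP, of arthritic and healthy rats sampled on the same day with the same therapy, 27 members were above 0 and 46 below, with a median of -0.13 (all genes -0.03), and with each array centred on its own median the values were -0.03 and 0.06. With an unadjusted p under 0.05 there were 1 member higher and 2 lower, against 1.88% and 2.48% of all genes. At that p 0 members also differed 2-fold (all genes 0.704% and 0.555%). When an array was left out 0 to 6 were lower, with 6 without NORA replicate 1 (all genes 4.11%). The AP arrays lay below all HAP arrays for 12 members (16.4%, against 9.91% of all genes) and above them for 1 (against 7.31%). That member was Mrps25, a mitochondria-specific small-subunit protein with linear signals of 812, 891 and 1024 in AP and 510, 634 and 607 in HAP, a log2 difference of 0.64 ± 0.19 (limma adjusted p = 0.810). Mrpl1 was 0.48 ± 0.26 and Mrps27 0.29 ± 0.28 above HAP, with overlap. Mrpl4 had 10.08, 10.09 and 9.86 in AP and 10.61, 10.59 and 10.33 in HAP, a difference of -0.50 ± 0.23. Mrpl46 differed by -0.61 ± 0.28, without overlap, and Mrps31 by -0.78 ± 0.38, with overlap. The platelet markers were above 0 for 10 of 12 genes, with a median of 0.55, and those of natural killer cells for 6 of 6, with a median of 0.67, and their part in these values was not tested.

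The change over the course of acupuncture in arthritic rats was also set against that in healthy rats (AP minus RA, minus HAP minus NORA). Of the members, 13 were above 0 and 60 below, with a median of -0.35. All genes had a median of -0.10, with 43.4% above 0. At an unadjusted p under 0.05, 0 members were above and 11 below 0 (15.1%), against 6.1% and 6.27% of all genes. With a 2-fold difference as well they were 0 and 3, Mrps9, Mrps31 and Mrps18b (all genes 5.35% and 3.69%). The 46 Mrpl genes had a median of -0.44 and the 27 Mrps genes -0.28. With each array centred on its own median the members' median was -0.48 and that of all genes -0.23. Every group of this contrast also enters a comparison above, so its values are no further evidence.

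Mrpl57 had the smallest p, with -0.97 ± 0.33 (limma adjusted p = 0.360): its group mean was 10.36 in NORA, 10.95 in HAP, 11.04 in RA and 10.67 in AP. Mrpl4 followed with -0.94 ± 0.34 and Mrps9 with -1.04 ± 0.41. In all 3 genes the healthy group was higher at day 34 and the arthritic group lower. On the positive side were Mrps25 with 0.62 ± 0.29, Mrps18c with 1.48 ± 0.70 and Mrps27 with 0.86 ± 0.43. For Mrps18c the dimmest of its probe sets gave -1.09 ± 0.35. Without NORA replicate 1, limma called 980 probe sets (5.29%), 6 of them members: Mrpl4, Mrpl46, Mrpl57, Mrps18b, Mrps9 and, with the opposite sign, Mrps18c. There were then 24 members below and 3 above 0 at an unadjusted p under 0.05, as were 15.8% and 10.3% of all genes. Without NORA replicate 3 it called none, the median was -0.29, and 3 members had an unadjusted p under 0.05, all below 0 (all genes 3.53%).

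Members varied together more than genes at large and less than cytosolic ribosomal protein genes. Over the 14 arrays the median correlation between 2 members was 0.22, and it was 0.18 after removal of group means. The same median was 0.75 for the 45 cytosolic ribosomal protein genes, 0.11 for the 80 respiratory chain genes and 0.01 for all 10088 genes. The respiratory chain list was taken by the start of the symbol, which lets in genes of ATP synthase (Atp5) and assembly factors (Ndufaf). Genes of a list share the arrays and their scaling, so these are descriptions. Each member was also set against the score of the other members: the correlation had a median of 0.57, ranged from -0.81 to 0.88, and was above 0 for 59 members. Mrpl23 and Mrpl35 were highest at 0.88, followed by Mrps5 at 0.87 and Mrpl58, a release factor built into the ribosome, at 0.85. Mrps18c (-0.81), Mrps27 (-0.63) and Mrpl14 (-0.45) were lowest, and the values of Mrps25 and Mrpl1 were -0.24 and -0.23.

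The other genes of mitochondrial translation were set beside the members. Of 61 such genes on the array, 57 were tested, and their medians were 0.17 in RA against NORA, 0.23 in HAP against NORA, -0.17 in AP against RA, -0.05 in MTXAP against RA, 0.09 in MTXAP against AP, -0.22 in AP against HAP and -0.34 in the difference of the changes. At an unadjusted p under 0.05 they counted 3 higher and 0 lower, 5 and 0, 1 and 2, 1 and 3, 4 and 3, 0 and 1, and 0 and 5, in the same order, and 0 passed adjustment. Of all genes, in that order, 2.85% and 5.27%, 3.49% and 2.25%, 3.95% and 3.04%, and 2.32% and 2.77% were higher and lower. In MTXAP against AP, AP against HAP and the difference of the changes they were 6.25% and 8.73%, 1.88% and 2.48%, and 6.1% and 6.27%. All RA arrays lay above all NORA arrays for 10.5% of the 57 genes, against 30.1% of members and 12.7% of all genes. All HAP arrays did so for 8.77%, against 19.2% of members and 7.24% of all genes. All AP arrays lay below both RA arrays for 40.4%, against 35.6% of members and 19.6% of all genes. Among ribosomal subunits under other names, all 5 were above 0 in RA against NORA (median 0.46) and in HAP against NORA (median 0.27) and all 5 below 0 in AP against RA (median -0.27). Assembly factors and modifiers of ribosomal RNA (18 tested) had medians of 0.33, 0.28 and -0.40 in these 3 comparisons, translation factors (8 tested) 0.36, 0.17 and -0.33, and aminoacyl-tRNA synthetases with the amidotransferase (16 tested) 0.05, 0.10 and -0.05. The score of these 57 genes followed that of the members with r = 0.87 over 14 arrays (Spearman 0.77, 0.83 after removal of group means, and 0.76 without NORA replicate 3 and AP replicate 2).

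Mrm1, a methyltransferase of mitochondrial ribosomal RNA, was 1.66 ± 0.64 higher in RA than in NORA (limma adjusted p = 0.583) and 1.63 ± 0.57 higher in HAP. Gatb, a subunit of the amidotransferase that charges glutamine transfer RNA, was 1.14 ± 0.34 higher in AP than in RA and 1.03 ± 0.34 higher in MTXAP than in RA. Fastkd2, which binds mitochondrial ribosomal RNA, was -1.25 ± 0.48 in AP against RA, and Malsu1, an assembly factor of the large subunit, -0.58 ± 0.23. In MTXAP against AP, Mtg2, a GTPase of large-subunit assembly, was -0.97 ± 0.21 (limma adjusted p = 0.184) and Mterf2, of the family of mitochondrial transcription termination factors, -2.17 ± 0.57. None of these passed the test.

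Set beside them, the 45 cytosolic ribosomal protein genes tested went with the members in some comparisons and not in others. They were above 0 for 86.7% in HAP against NORA (members 87.7%) and below 0 for 95.6% in AP against RA (members 67.1%). They were above 0 for 42.2% in RA against NORA (members 89.0%) and for 84.4% in MTXAP against RA (members 23.3%). Their medians were -0.06 in RA against NORA, 0.11 in HAP against NORA, -0.12 in AP against RA, 0.09 in MTXAP against RA, 0.22 in MTXAP against AP and -0.31 in AP against HAP. The 80 respiratory chain genes tested had 0.18, 0.12, -0.05, -0.11, -0.04 and 0.01 in the same order. In the difference of the changes, 93.3% of the cytosolic ribosomal protein genes and 67.5% of the respiratory chain genes were below 0. The same shares were 82.2% of members and 56.55% of all genes. The score of the members correlated with that of the cytosolic ribosomal proteins with r = 0.16 and with that of the respiratory chain with r = 0.55 over the 14 arrays. In RA against NORA 23 respiratory chain genes (28.7%) had all RA arrays above all NORA arrays, close in share to the 22 members, and 0 cytosolic ribosomal protein genes did.

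The score of the platelet markers ran opposite to that of the members. The 12 platelet markers tested of 13 listed, among them Pf4 and Itga2b, had a score of -0.60 to 1.22 on the NORA arrays, -1.03 to -0.56 in RA, -0.52 to -0.01 in HAP, -0.09 to 0.49 in AP and -0.43 to 0.43 in MTXAP. All 12 were above the array's median on all 14 arrays. Over the 14 arrays the score of the members and that of the platelet markers had r = -0.84 (Spearman -0.75), r = -0.78 after removal of group means, and r = -0.74 without NORA replicate 3 and RA replicate 1. The erythroid score ranged from -0.14 to 2.57 in NORA, -0.95 to 0.24 in RA, 0.08 to 0.35 in HAP, -0.47 to 1.20 in AP and -5.96 to 1.11 in MTXAP, and had r = -0.56 with the members, or -0.45 without NORA replicate 3 and MTXAP replicate 3. Their part in the differences of the members was not tested, and in bulk samples fewer cells of a type and less RNA per cell cannot be told apart.

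**Figure D5:**
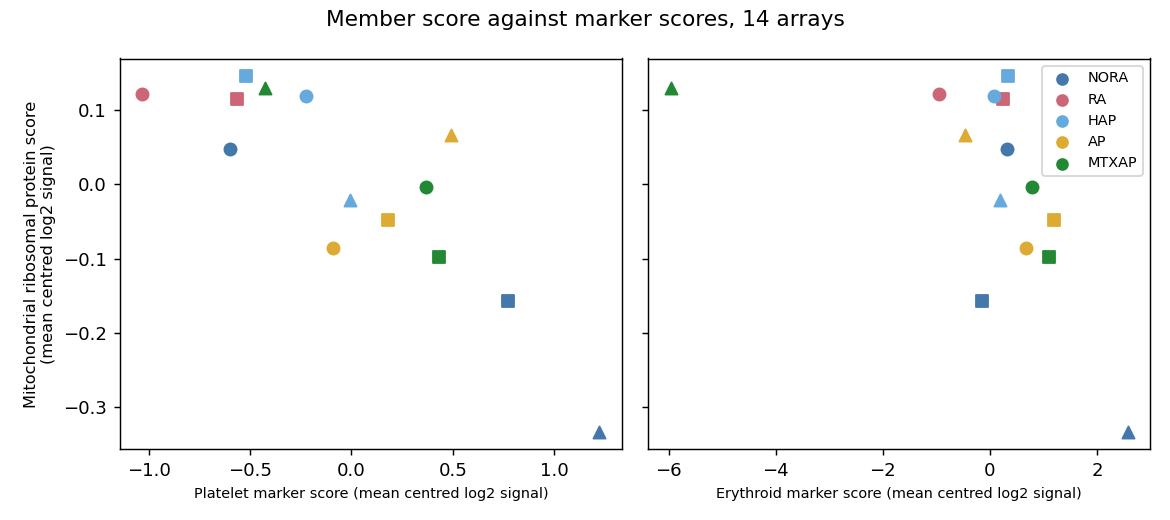
Score of the 73 members (y axis, mean centred log2 signal) against the score of 12 platelet markers (left) and 8 erythroid markers (right) on the 14 arrays; colours are groups, and the symbol tells the replicate (circle 1, square 2, triangle 3). NORA replicate 3 lies at the lower right of both panels, with a platelet score of 1.22 and a member score of -0.33.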

How the data were processed

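Peripheral blood mononuclear cells of 14 rat blood samples were hybridised to Affymetrix rat230 2.0 arrays. The authors computed MAS5 signals with affy (version not given in the sources used here), and the deposited table holds 1 intensity per probe set on a linear scale, whose trimmed mean (2% removed at each end) is 500 on every array. Groups were taken from the sample titles. AFFX controls were left out of 31042 probe sets, and the 18515 with an intensity above the array's median on at least 2 of 14 arrays were tested. Symbols came from the platform annotation: 20826 probe sets have 1, 436 several and 9780 none.

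Log2 intensities without a pseudocount were fitted in R 4.3.3 with limma 3.58.1 (lmFit, contrasts.fit, eBayes), with 1 mean per group over all 14 arrays, as the study's methods name limma, and tests were two-sided. A probe set was called at an adjusted p of 0.05 (Benjamini-Hochberg over 18515 probe sets). P-values measure the spread between arrays. The precision is limited by the number of arrays. Fits were tested on simulated data, with planted changes larger than any difference of a member and with a reduced spread. That run does not show whether differences of the size seen here would be called. The members, roles and other lists were chosen with earlier results of these data known. Named members are the 3 per direction with the smallest p in each comparison, the 5 with the smallest p in the F test, any called, and those whose probe sets oppose each other at an unadjusted p of 0.05; of other mitochondrial translation genes up to 2 per direction were named. Mrps12 without moderation, and Mrpl4, Mrpl46 and Mrps9 in further comparisons, were named after their values were seen. Alternatives were quantile normalization, centring on the array median, a pseudocount of 16, no filter or a filter on all 14 arrays, array weights, no moderation, only the arrays compared, the replicate number as a block, the mean of all probe sets of a gene, the study's thresholds (unadjusted p of 0.05 and 2-fold) and leaving out each array. Leaving out NORA replicate 3 and MTXAP replicate 3 together was added after the data were seen. Promoters came from RefSeq (GRCr8) by the gene ID of the probe set used, and 59 of 73 members matched.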

Additional observations from a re-analysis of the deposited data

How the results depend on the processing

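The number of members called stayed 0 in all 7 comparisons and in the F test with quantile normalization, centring, the pseudocount, both other filters and averaged probe sets, and in the 7 comparisons also with only the groups compared, where no F test was run. With array weights it was 3 of 73 in RA against NORA, where 765 of 18515 probe sets were called. In that comparison members were thus called about as often as probe sets at large. It was 9 of 73 in the difference of the changes, where 1651 of 18515 probe sets were called. Without moderation it was 1 of 73 in MTXAP against AP, where 5 of 18515 probe sets were called. With the study's thresholds it was 1 of 73 in RA against NORA, 1 in AP against RA, 2 in MTXAP against AP and 3 in the difference of the changes. Of all genes, 0.476% were higher and 3.86% lower at these thresholds in RA against NORA, and 2.48% and 0.644% in AP against RA. The shares were 1.61% and 2.38% in MTXAP against AP, and 5.35% and 3.69% in the difference of the changes. Array weights were lowest for NORA replicates 1 and 3 (0.321 and 0.289).

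Centring each array on its own median moved the members' median to 0.51 in RA against NORA, -0.25 in AP against RA, -0.25 in MTXAP against RA and -0.48 in the difference of the changes, while the median of all genes moved from 0.08 to 0.30, from 0.01 to -0.12, from -0.02 to -0.17 and from -0.10 to -0.23. Mrpl10 turned from -0.12 to 0.10 in RA against NORA under this centring, and to 0.20 with averaged probe sets. In AP against RA, where it was 0.33, averaged probe sets gave -0.027. Of the members with several probe sets tested (14), those whose probe sets differed in sign numbered from 3 in the difference of the changes to 8 in MTXAP against AP. The cause was not tested.

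Leaving out each array gave 0 to 1 members called in RA against NORA, 0 to 6 in the difference of the changes and 0 elsewhere. Each exception came without NORA replicate 1 (168 and 980 probe sets, 0.907% and 5.29% of those tested). Medians ranged from 0.19 to 0.39 in RA against NORA, 0.17 to 0.37 in HAP against NORA, -0.19 to -0.06 in AP against RA, -0.16 to -0.05 in MTXAP against RA, -0.03 to 0.08 in MTXAP against AP, -0.17 to -0.04 in AP against HAP and -0.44 to -0.29 in the difference of the changes. Without NORA replicate 3 and MTXAP replicate 3 the medians were 0.19, 0.17, -0.12, -0.16, -0.01, -0.13 and -0.29 in that order.

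Replicate numbers mark no shared animal, and correlations of deviations between arrays of the same number ranged from -0.42 to 0.37. With the replicate number as a block 0 members were called, and the medians were 0.28, 0.23, -0.09, -0.08, 0.01, -0.13 and -0.37. A difference that misses the threshold with 2 or 3 arrays per group is not shown to be absent.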
